A study of Homo sapiens with 3 samples.

Results

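The MHC class I presentation genes described here are the heavy chain genes HLA-B, HLA-C and HLA-E, the light chain gene B2M, the peptide transporter genes TAP1 and TAP2, the tapasin gene TAPBP and the immunoproteasome genes PSMB8 and PSMB9. They were chosen by name as genes of this pathway, and all 9 were found among the 29689 genes of the deposited table. Other classical class I heavy chain genes were not analysed here. The samples were tumors of SUM-149, an established triple-negative breast cancer (TNBC) cell line, grown in Matrigel in the mammary fat pads of female Nu/Nu mice, a strain that lacks mature T cells. There was 1 library from a vehicle control tumor, 1 from a tumor given the CDK2 inhibitor dinaciclib for 10 days (CDK2i) and 1 from a tumor given the EZH2 inhibitor EPZ6438 for 10 days (EZH2i). The inhibitor names are those of the sample labels. A legend in the study gives another EZH2 inhibitor, GSK343, for SUM-149 xenografts, so which of these drugs the EZH2i library represents is not settled here. No genotype, dose or animal age stands in the labels, and the same cell line and host were used in all 3 groups. With 1 library per group no value below has a replicate, no p-value was computed, and an effect of an inhibitor cannot be told apart from a difference between single tumors.

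Class I molecules show fragments of a cell's own proteins to CD8+ T cells. The proteasome cuts proteins into peptides, TAP1 and TAP2 together carry the peptides into the endoplasmic reticulum, tapasin holds the transporter to empty class I molecules, and a heavy chain with its light chain and a bound peptide then moves to the cell surface. Interferon raises these genes in most cell types, acting through IRF1 and the transactivator NLRC5 among others, and low class I expression is a known route by which tumors escape T cells. Polycomb repressive complex 2 (PRC2), whose catalytic subunit is EZH2, has been described as a repressor of class I presentation genes in some tumors.

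The start regions of 5 of the genes, taken from the heavy chain, light chain, transporter and tapasin steps, are shown first. Interferon and NF-κB signals are known to reach this pathway through short elements near gene starts. Regions with matches to the motifs capitalized below are set beside that of HLA-C, which has neither capitalized motif. Each runs from 250 bases before to 50 bases after the gene's start and is written 5′ to 3′ on the strand of the gene. The sequences are from RefSeq on GRCh38.p14, a later build than that of the expression data. Capitals mark matches on either strand to the interferon response element core GAAANNGAAA or to the κB-type motif GGGNNTTNCC, where N is any base and neighboring matches can overlap.
HLA-B (chr6:31357130-31357429, minus strand): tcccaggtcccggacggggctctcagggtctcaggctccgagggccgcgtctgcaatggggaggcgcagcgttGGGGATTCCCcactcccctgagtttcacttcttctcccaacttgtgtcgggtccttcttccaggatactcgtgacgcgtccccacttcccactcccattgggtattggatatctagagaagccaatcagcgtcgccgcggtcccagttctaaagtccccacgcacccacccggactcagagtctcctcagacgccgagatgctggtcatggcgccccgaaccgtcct
HLA-C (chr6:31272043-31272342, minus strand): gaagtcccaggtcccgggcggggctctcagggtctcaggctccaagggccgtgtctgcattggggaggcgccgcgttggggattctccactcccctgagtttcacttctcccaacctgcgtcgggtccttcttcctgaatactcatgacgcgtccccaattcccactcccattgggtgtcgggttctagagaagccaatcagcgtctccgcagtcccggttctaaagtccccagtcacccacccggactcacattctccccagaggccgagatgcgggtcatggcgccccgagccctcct
B2M (chr15:44711267-44711566, plus strand): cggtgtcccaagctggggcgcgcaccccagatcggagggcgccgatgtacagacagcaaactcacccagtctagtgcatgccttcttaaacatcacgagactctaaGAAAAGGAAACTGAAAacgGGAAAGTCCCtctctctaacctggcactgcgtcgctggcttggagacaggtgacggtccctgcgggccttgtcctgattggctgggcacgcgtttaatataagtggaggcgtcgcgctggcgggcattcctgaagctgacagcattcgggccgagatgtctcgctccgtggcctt
TAP1 (chr6:32853655-32853954, minus strand): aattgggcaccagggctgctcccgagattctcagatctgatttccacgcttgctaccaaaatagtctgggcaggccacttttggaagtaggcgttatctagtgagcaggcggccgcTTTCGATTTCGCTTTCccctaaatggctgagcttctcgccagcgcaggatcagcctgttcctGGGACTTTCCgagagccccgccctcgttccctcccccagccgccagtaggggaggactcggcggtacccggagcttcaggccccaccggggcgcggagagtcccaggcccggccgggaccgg
TAPBP (chr6:33314029-33314328, minus strand): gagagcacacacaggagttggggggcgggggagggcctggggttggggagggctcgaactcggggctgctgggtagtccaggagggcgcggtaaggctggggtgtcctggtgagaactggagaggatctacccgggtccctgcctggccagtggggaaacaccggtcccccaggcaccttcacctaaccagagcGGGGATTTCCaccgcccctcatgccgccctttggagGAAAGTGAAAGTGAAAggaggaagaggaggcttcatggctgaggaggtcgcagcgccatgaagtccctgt

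Of the 9 genes, 8 had a start region in the RefSeq table, and the first listed region of each was searched. The interferon response element core was found in 4 of these 8, B2M, TAP1, TAPBP and TAP2 (region not shown), against 3.57% of all 35116 start regions of the same length. The κB-type motif was found in 4, HLA-B, B2M, TAP1 and TAPBP, against 5.68% of all regions. HLA-B held it 177 bases before the start, and the HLA-C region shown had no match. The shorter IRF core AANNGAAA, which overlaps the longer element, was found in 6 of the 8, HLA-B and HLA-C among them, and in 22.8% of all regions. The CCAAT box was in 5 of the 8 against 34.6%, and the X2 box core TGACG, part of the class I enhanceosome site, in 6 against 24.6%. PSMB9 held neither capitalized motif, and PSMB8 held neither in its first listed region, while its second listed region held the interferon response element core 4 bases before the start. The RefSeq starts of TAP1 and PSMB9 lie 488 bases apart and point away from each other, so that their start regions meet head to head and share 13 bases. These matches are a description of the letters and were not measured as bound sites.

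On GRCh37, the build the authors used, 8 of the 9 genes lie in the MHC on chromosome 6 and B2M lies on chromosome 15 (45003556 to 45011049, plus strand). HLA-E (30457286 to 30461971, plus strand), HLA-C (31236526 to 31239907, minus strand) and HLA-B (31321649 to 31334844, minus strand) are in the class I region. TAP2 (32789610 to 32806516, minus strand), PSMB8 (32808494 to 32812456, minus strand), PSMB9 (32811913 to 32827628, plus strand) and TAP1 (32812986 to 32821593, minus strand) lie together in the class II region, where TAP1 is within the annotated extent of PSMB9 and PSMB8 overlaps PSMB9, and TAPBP (33267471 to 33282061, minus strand) lies beyond them. Close relatives and overlapping genes limit how surely reads were assigned. Of the 50-base windows of the GENCODE canonical transcript, 2.56% of HLA-B, 6.76% of HLA-C, 6.16% of HLA-E and 7.09% of TAPBP also occurred in transcripts of other genes. For TAP2 this share was 35.3%, since a second annotated protein-coding gene on the same strand covers part of it, and for B2M, PSMB8 and PSMB9 it was 0. PSMB8 and PSMB9, on opposite strands, share 139 exon bases. PSMB8, PSMB9 and TAP1 share exon bases with the antisense or overlapping gene PSMB8-AS1, and whether the counting used strand is not given in the sources used here.

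The values are log2 FPKM, the log2 of a fragment count divided by gene length and by library size, so levels of different genes can be set side by side within a library. The steps between low FPKM values gave a depth of 16.8 M fragments in the vehicle library, 19.1 M in the CDK2i library and 17.5 M in the EZH2i library (M, 1000000). Epithelial markers of the tumor cells were high in every library, with EPCAM between 6.05 and 6.34 log2 FPKM and 8 markers that summed to 6392 (vehicle), 13249 (CDK2i) and 5393 (EZH2i) FPKM. Leukocytes and antigen-presenting cells also carry class I genes, so markers of other cells were read alongside. Host cells in these tumors are mouse cells. Low values of human marker genes therefore do not measure how many host cells were present. Of 9 leukocyte markers in the table, 7 were below 1 FPKM in each library, including the pan-leukocyte gene PTPRC, which was at −5.48 log2 FPKM in vehicle, at −5.67 in CDK2i and listed at 0 FPKM in EZH2i. Their summed level was 11.7, 11.2 and 5.57 FPKM, most of it from CD14 and ITGAM. The 3 endothelial markers together stayed at or below 0.833 FPKM, and the sum of 7 fibroblast markers was 24.5, 38.4 and 28.9 FPKM in the same order. The part of host cells in the class I values, through mouse reads that could align to human genes, was not tested.

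Class I presentation genes were well expressed in the vehicle tumor but spread over a wide range. Together they made up 0.0738% of the summed FPKM of the vehicle tumor, 0.106% of that of CDK2i and 0.0795% of that of EZH2i. In vehicle the order of levels was HLA-E (6.85 log2 FPKM), TAPBP (6.33), B2M (5.83), HLA-C (5.39), HLA-B (4.55), PSMB8 (4.49), TAP1 (3.09), PSMB9 (1.27) and TAP2 (1.19). HLA-E, a nonclassical heavy chain recognized by NKG2A on natural killer cells, ranked 440th of all 29689 genes in the vehicle tumor. HLA-B and PSMB8 stood next to each other with 23.3 and 22.4 FPKM, and PSMB9 and TAP2 with 2.40 and 2.27 FPKM, and neither pair can be ordered without replicates. TAP2 and PSMB9 stayed below log2 FPKM 3, the expression minimum used here, in all 3 libraries.

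**Figure D1:**
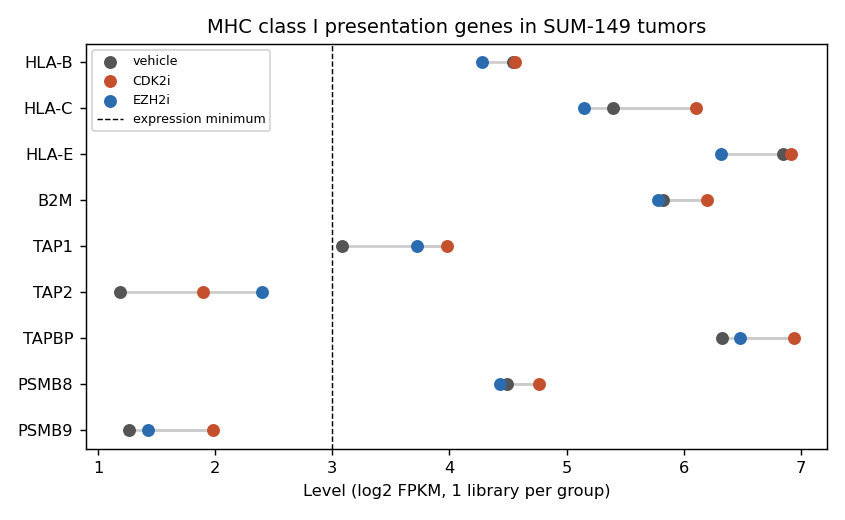
Level of each gene in log2 FPKM (x axis) in the vehicle, CDK2i and EZH2i libraries, 1 point per library, with the expression minimum of log2 FPKM 3 as a dashed line. CDK2i is the rightmost point for every gene except TAP2, where EZH2i is highest at 2.40.

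The first question was how the pathway stood in the CDK2i tumor against the vehicle tumor. All 9 genes were higher in CDK2i, by 0.01 to 0.89 on the log2 scale with a median of 0.62, but none passed the call used for the series, a fold change above 2 with the higher value above log2 FPKM 3. By this call 752 of 6632 genes above the minimum were called (11.3%), with 217 higher (3.27%). The higher direction held 28.9% of these calls. It held 50.9% after each library was centred on the median level of its expressed genes (median centring), 41.1% after centring on the median change of expressed genes, and 17.7% after equal sums without ribosomal protein and mitochondrially encoded genes. Among the 11109 expressed genes (mean log2 FPKM above 1 and no value listed at 0) the median change was −0.11, and 41.9% were higher in CDK2i. Relative to that median, the class I median was higher by 0.73.

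Among the heavy chains, HLA-C, a classical heavy chain and the main class I ligand of killer cell immunoglobulin-like receptors, was at 5.39, 6.10 and 5.15 log2 FPKM in the vehicle, CDK2i and EZH2i tumors. Its CDK2i change of 0.71 was larger than that of 93.4% of expressed genes, and its 95% counting interval ran from 0.60 to 0.82. HLA-B, the neighboring classical heavy chain gene, was at 4.55, 4.56 and 4.28 log2 FPKM. Its CDK2i change of 0.01 had a counting interval from −0.15 to 0.17, which includes 0. HLA-E was at 6.85, 6.92 and 6.32, a CDK2i change of 0.06. The level of HLA-C was thus 1.80 times that of HLA-B in vehicle, 2.91 times in CDK2i and 1.83 times in EZH2i, a ratio within each library that no rescaling of libraries alters.

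B2M, the invariant light chain that every class I molecule needs, was at 5.83 (vehicle), 6.20 (CDK2i) and 5.78 (EZH2i) on the log2 FPKM scale. The CDK2i change of 0.37 (counting interval 0.25 to 0.49) was above that of 81.5% of expressed genes. Summed over HLA-B, HLA-C and HLA-E, heavy chain mRNA was 3.19 times B2M in vehicle, 2.90 times in CDK2i and 2.45 times in EZH2i. The EZH2i value depended on the GC and length trend described below. With that trend removed, the log2 shift against B2M from vehicle to EZH2i turned from −0.22 to 0.28 for HLA-B. It turned from −0.20 to 0.34 for HLA-C and stayed negative for HLA-E (−0.48 and −0.32).

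Of the peptide transporter and loading genes, TAP1 was at 3.09, 3.98 and 3.73 log2 FPKM in the vehicle, CDK2i and EZH2i tumors, and its CDK2i change of 0.89 (counting interval 0.71 to 1.07) was the largest of the 9 and above that of 96.1% of expressed genes. TAP2 was at 1.19, 1.89 and 2.40 log2 FPKM, from about 215, 401 and 521 fragments. Its CDK2i change was 0.71. TAPBP was at 6.33, 6.94 and 6.48, a CDK2i change of 0.62 with a counting interval from 0.56 to 0.67.

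The immunoproteasome genes PSMB8 and PSMB9 encode catalytic subunits that replace the constitutive PSMB5 and PSMB6 and favor peptides that fit class I grooves. PSMB8 was at 4.49 (vehicle), 4.77 (CDK2i) and 4.43 (EZH2i) on the log2 FPKM scale, a CDK2i change of 0.28. PSMB9 was at 1.27, 1.98 and 1.43, a CDK2i change of 0.71 that rested on about 41 fragments in vehicle and 77 in CDK2i, with a counting interval from 0.15 to 1.30. The 3 constitutive counterparts were slightly lower in CDK2i, PSMB5 by 0.33, PSMB7 by 0.27 and PSMB6 by 0.03. Within a library, PSMB8 stood at 35.9% of PSMB5 in vehicle, 54.7% in CDK2i and 38.3% in EZH2i. PSMB9 stood at 1.51%, 2.52% and 2.11% of PSMB6, and PSMB10 at 3.26%, 4.14% and 3.42% of PSMB7. The constitutive subunit was thus the more abundant mRNA of each pair in all 3 tumors.

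**Figure D2:**
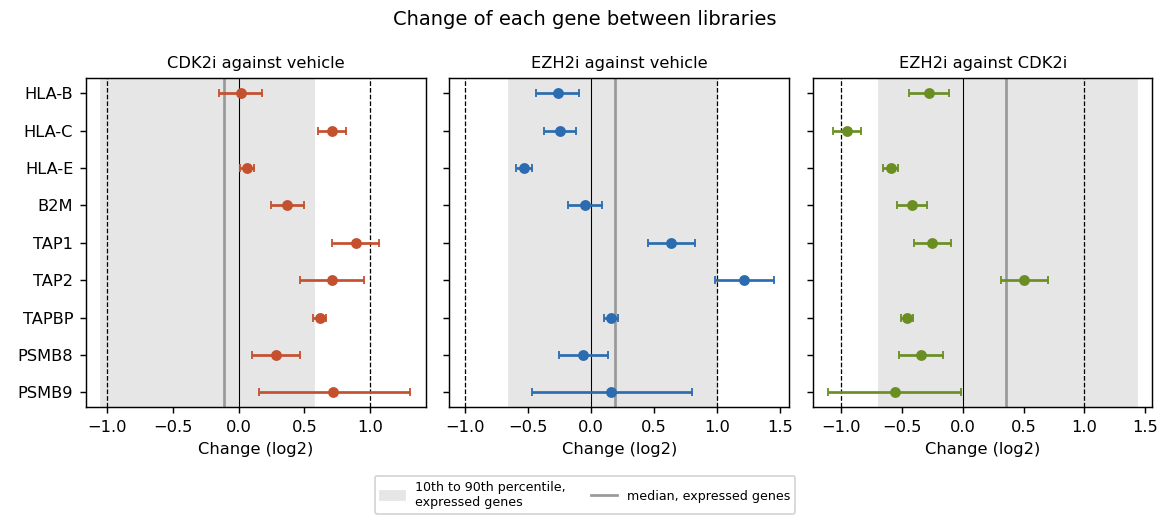
Log2 change of each gene (x axis) in each of the 3 comparisons, with bars for the 95% counting interval, the 10th to 90th percentile of expressed genes in gray, their median as a gray line and the fold threshold as dashed lines. In CDK2i against vehicle, 5 genes (HLA-C, TAP1, TAP2, TAPBP and PSMB9) lie to the right of the gray band.

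The second question was how the pathway stood in the EZH2i tumor. Here the genes went both ways, with 4 higher and 5 lower than in vehicle and a median change of −0.05. By the call of the series, 990 of 7414 genes above the minimum were called (13.4%) and none of the class I genes. The higher direction held 66.9% of these calls, 31.8% after median centring, 38.8% after centring on the median change, 88.9% after equal sums and 40.5% after the GC and length correction. Among the 11109 expressed genes the median change was 0.19, with 61.5% higher, so the class I median lay 0.24 below the median of expressed genes. The transporter genes differed from the heavy chains. TAP2 was higher by 1.21, 2.32 times the vehicle level (counting interval of the log2 change 0.98 to 1.45), but at 2.40 log2 FPKM it did not reach the expression minimum. With a minimum of log2 FPKM 1, TAP2 passed, as did 1577 of 12392 genes in the higher direction (12.7%). TAP1 was higher by 0.64 (0.45 to 0.83). HLA-E was lower by 0.53 on the log2 scale, a change above that of only 13.2% of expressed genes, HLA-B was lower by 0.26 and HLA-C by 0.25. The changes of B2M (−0.05), PSMB8 (−0.06) and PSMB9 (0.16) had counting intervals that include 0, and TAPBP was higher by 0.16.

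The EZH2i values moved with the GC content and length of transcripts. Over 9447 expressed genes with a canonical transcript, ribosomal protein genes left out, the EZH2i change correlated with GC content at a Spearman coefficient of −0.583 and with transcript length at 0.491. The CDK2i change had coefficients of 0.0341 and 0.0951. Genes are not independent replicates, and these describe the libraries only. The class I genes span this range, from B2M with 39.1% GC over 943 bases to HLA-C with 60.1% over 1542 bases, while the canonical TAP2 transcript has 5643 bases. With a smooth trend over both properties removed, the EZH2i change was 0.08 for HLA-B, 0.14 for HLA-C, −0.52 for HLA-E, −0.20 for B2M, 0.72 for TAP1, 0.73 for TAP2, 0.14 for TAPBP, 0.24 for PSMB8 and 0.40 for PSMB9. Thus 7 of 9 were then higher and the median was 0.14, and only HLA-E and B2M were lower. TAP1 and TAP2 were higher and HLA-E was lower in EZH2i under each scaling tried, whereas the sign of HLA-B, HLA-C, B2M, TAPBP, PSMB8 and PSMB9 depended on it. In CDK2i the same correction gave changes from 0.19 (HLA-B) to 1.05 (TAP1), and 9 of 9 stayed higher. The correction also recentres each treated library, and it moved the CDK2i median of expressed genes from −0.11 to 0.05.

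**Figure D3:**
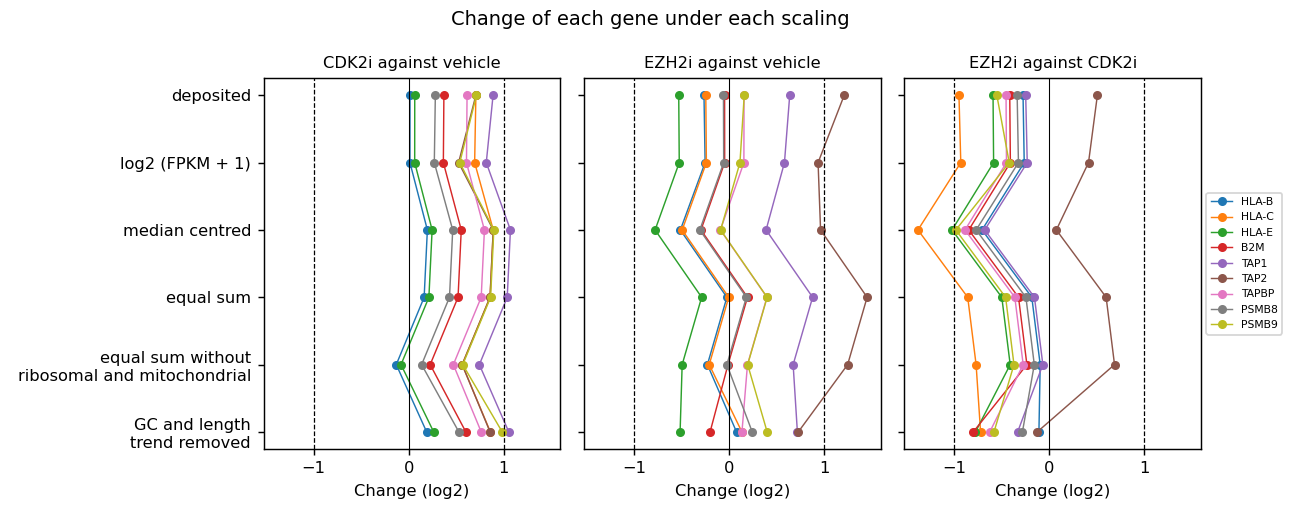
Log2 change of each gene (x axis) under the deposited scaling and 5 alternatives (y axis), in each comparison, with the fold threshold as dashed lines. In CDK2i against vehicle only HLA-B and HLA-E cross 0, at −0.13 and −0.08 with equal sums without ribosomal protein and mitochondrially encoded genes.

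The treated tumors were then compared directly, which leaves out the shared vehicle library. Of the 9 genes 8 were lower in EZH2i than in CDK2i, with a median of −0.42, while 66.9% of expressed genes were higher and their median was 0.35. None passed the call, against 1780 of 7394 genes (24.1%), of which 72.9% were higher in EZH2i, or 28.1% of those called after median centring and 33.8% after centring on the median change. HLA-C showed the largest difference, −0.95 with a counting interval from −1.06 to −0.84, and was lower relative to CDK2i than all but 6.31% of expressed genes. HLA-E was lower by 0.59, PSMB9 by 0.55, TAPBP by 0.46, B2M by 0.42, PSMB8 by 0.34, HLA-B by 0.28 and TAP1 by 0.25. TAP2 was higher by 0.51, and with the GC and length trend removed it was lower by 0.13.

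Genes that work beside these 9 in the pathway were read from lists. In the endoplasmic reticulum, 5 of 6 peptide loading and trimming genes were higher in CDK2i, with a median of 0.39. The trimming peptidase ERAP2 was at 0.99, 1.92 and 1.87 log2 FPKM in the vehicle, CDK2i and EZH2i tumors, and the chaperone calnexin (CANX) at 6.48, 7.12 and 7.21. TAPBPL, which encodes the tapasin-related peptide editor TAPBPR, was the exception and was called lower in CDK2i, at 2.50 log2 FPKM against 3.51 in vehicle, a change of −1.01. Of the 6 genes 4 were above the minimum in that comparison, where 11.3% of all genes above it were called. TAPBPL was at 3.02 in EZH2i. With the GC and length trend removed, the EZH2i changes fell from 0.88 to 0.16 for ERAP2 and from 0.73 to 0.02 for CANX. The EZH2i median of the 6 genes then moved from 0.28 to −0.09. The TAPBPL call was lost with a pseudocount and after median centring (−0.83), equal sums (−0.86) and the GC and length correction (−0.84). The immunoproteasome subunit gene PSMB10 and the proteasome activator and assembly genes PSME1, PSME2 and POMP differed little in CDK2i. Their changes were 0.03 to 0.28, with a median of 0.05. In EZH2i their changes ran from −0.38 for PSMB10 to 0.05. The counting interval of the PSMB10 change, −0.83 to 0.08, includes 0. With the GC and length trend removed, the EZH2i change was 0.21 for PSMB10 and −0.29 for POMP. The EZH2i median of this list then moved from 0.01 to 0.22.

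Class I-like heavy chains outside the 9 genes did not share the pattern of higher values in CDK2i. Of the 5 expressed ones, 4 were lower in CDK2i with a median of −0.59. Only 2 were above the minimum in each comparison against vehicle, and neither was called. The share called over all genes above the minimum was 11.3% in CDK2i and 13.4% in EZH2i. HLA-F was at 3.05 (vehicle), 2.20 (CDK2i) and 2.35 (EZH2i) on the log2 FPKM scale. MICA and MICB encode stress-induced ligands of the natural killer receptor NKG2D that bind no peptide. MICA was at 3.90, 3.03 and 4.07, called higher in EZH2i than in CDK2i by 1.04, a call lost after median centring (0.61), with log2 of FPKM + 1 (0.96) and after the GC and length correction (0.98). In that comparison 24.1% of all genes above the minimum were called. MICB was at 1.63, 1.04 and 2.61. HFE, a regulator of iron uptake, was at 2.15, 2.23 and 2.97. With the GC and length trend removed, the EZH2i change of HFE was 0.16 against 0.825 before, and that of MICB 0.83 against 0.98.

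Among 15 regulators of class I genes, 9 were above the minimum in CDK2i against vehicle and 10 in EZH2i against vehicle. None of these was called, against 11.3% and 13.4% of all genes above the minimum. With so few genes at such shares, the absence of calls says little about the list. NLRC5, the transactivator that acts on class I promoters, was at 0.30, 0.69 and 1.43 log2 FPKM in the vehicle, CDK2i and EZH2i tumors, changes of 0.39 and 1.14 at levels below the minimum. The interferon receptor kinase JAK2 was at −0.61, 0.37 and 1.10, and its relative JAK1 at 2.85, 3.63 and 3.76. IRF1 was lower in CDK2i by 0.37 and higher in EZH2i by 0.40. RFXAP, a subunit of the RFX complex that binds MHC promoters, was at 1.91, 0.71 and 2.24, the largest CDK2i change of the expressed regulators (−1.20). The NF-κB subunit gene NFKB1 was at 3.10, 3.18 and 3.94. IRF2, a factor of the IRF family, was at 3.22, 2.48 and 3.80. It was called higher in EZH2i than in CDK2i by 1.32, a call lost after median centring (0.89) and after the GC and length correction (0.80). This was 1 of 10 regulators above the minimum in that comparison, where 24.1% of all genes above it were called. Over the 12 expressed regulators the median was −0.12 for CDK2i and 0.39 for EZH2i. With the GC and length trend removed, the EZH2i change was 0.94 for NLRC5, 0.84 for JAK2 and 0.37 for JAK1.

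Most of the interferon-stimulated genes were weakly expressed, and 7 of 18 were expressed by the rule above. BST2 was the highest of the list, at 6.87, 7.24 and 6.69 log2 FPKM in the vehicle, CDK2i and EZH2i tumors. Taken over the 7 expressed genes, the median was 0.05 for CDK2i and −0.18 for EZH2i. The sign of both depended on the scaling. The CDK2i median was −0.09 with equal sums without ribosomal protein and mitochondrially encoded genes. The EZH2i median was −0.43 after median centring, 0.06 with equal sums and 0.08 with the GC and length trend removed. IFI6 was called higher in CDK2i by 1.28, and IFITM1 lower in EZH2i by 1.27 on the log2 scale. Each was 1 of 5 listed genes above the minimum, against called shares over all genes of 11.3% (CDK2i) and 13.4% (EZH2i). The IFITM1 change was −0.81 after the GC and length correction and was then not called. IFI44 was at 1.46, 0.34 and 1.42 log2 FPKM and IFI27 at 1.63, 1.68 and 0.70. UBE2L6, the conjugating enzyme for ISG15, was at 3.77 (vehicle), 4.61 (CDK2i) and 3.62 (EZH2i) on the log2 FPKM scale, while ISG15 itself was at 3.82, 3.80 and 3.49. The MHC class II genes stood apart from class I in the same libraries. CD74, the class II invariant chain, was at 5.59, 4.01 and 2.01 log2 FPKM and HLA-DRA at 3.30, 2.03 and 0.37, both called lower in each treated tumor against vehicle. Of 10 class II genes, only these 2 were above the minimum in either comparison. The share called over all genes above the minimum was 11.3% in CDK2i and 13.4% in EZH2i. HLA-DMA, the only other expressed class II gene, was at 1.31, 1.21 and 0.63. With the GC and length correction the CDK2i change of HLA-DRA was −0.996, just short of the call. CIITA, the class II transactivator, was at 0.29, −1.57 and −0.98 and was not expressed by the rule above. CD14, from the leukocyte marker list, was called lower in EZH2i than in vehicle, by 1.35 on the log2 scale. After the GC and length correction it was lower by 0.90 and not called. Which cells its reads came from, and any link to the class II or class I values, was not tested.

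PRC2 genes were read because EZH2 was the target of one inhibitor. EZH2 was at 2.94, 2.32 and 3.83 log2 FPKM in the vehicle, CDK2i and EZH2i tumors, EED at 2.91, 2.25 and 3.50 and SUZ12 at 2.35, 2.30 and 3.27. RBBP4, a histone-binding subunit, was at 4.45, 4.63 and 5.24. Against vehicle, 3 of the PRC2 genes were above the minimum in CDK2i and 6 in EZH2i. None was called, against 11.3% and 13.4% of all genes above the minimum. EZH2 and EED were called higher in EZH2i than in CDK2i, by 1.51 and 1.25, and both calls were lost after the GC and length correction (0.92 and 0.74), that of EED also after median centring (0.82). In that comparison 5 PRC2 genes were above the minimum, and 24.1% of all genes above it were called. The median over 6 PRC2 genes was −0.34 in CDK2i and 0.69 in EZH2i, or 0.10 in EZH2i with the trend removed. The mRNA level says nothing of the activity of an inhibited enzyme.

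**Figure D4:**
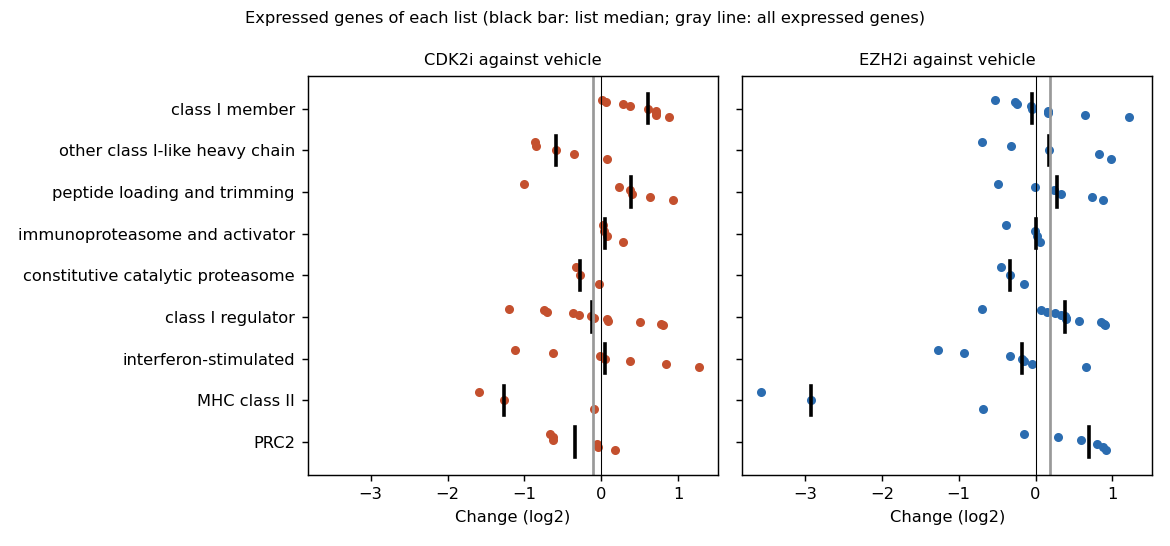
Log2 change (x axis) of the expressed genes of each list in CDK2i and EZH2i against vehicle, 1 point per gene, with list medians as black bars and the median of all expressed genes as a gray line. In CDK2i the 9 class I genes all lie at or above 0.01, with a median of 0.62, while the MHC class II genes lie at or below −0.09.

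Under the deposited scaling, TAP2 had the largest mean change of the 9 genes over both inhibitors, 0.96, though at levels below the expression minimum. With the GC and length trend removed, its CDK2i and EZH2i changes were 0.86 and 0.73, against 1.05 and 0.72 for TAP1. Genes of log2 FPKM above 3 whose pair of deposited changes lay nearest to that of TAP2 were SFT2D2, PTPN13, PRKCI, PTPN11 and ADAM9. Their distances were 0.005 to 0.0336 on the log2 scale. With 2 changes from 3 libraries and 7576 candidate genes, such near matches are many, and the likeness is a description only.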

How the data were processed

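RNAseq was analysed from 3 SUM-149 xenograft tumors, 1 library each for vehicle, CDK2i and EZH2i. The authors deposited log2 FPKM values per gene symbol, made with GRCh37/hg19 as reference genome and annotation. The submitters' processing notes name CASAVA and STAR. Versions, the counting tool and any removal of mouse reads are not given in the sources used here. The lowest entry, −9, is read here as 0 FPKM; 5853 vehicle, 5624 CDK2i and 5682 EZH2i genes had it.

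Changes are differences of log2 FPKM without a pseudocount. The call was a fold change above 2 with the higher value above log2 FPKM 3. The limma p-value of the study was not repeated, since 1 library per group allows no test. Depth was recovered from FPKM steps of 1 fragment in genes whose merged exons are as long as their canonical transcript (327, 358 and 315 genes within 0.3% of the step). Fragment numbers use GENCODE 44 canonical transcript lengths on GRCh37, are approximate because the authors' gene lengths are not stated, and give exact (Clopper-Pearson) 95% intervals of the ratio of 2 libraries, which cover counting error only. The authors' reference holds a single allele of each HLA gene.

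The GC and length trend was fitted as a polynomial of degree 3 in each property over expressed genes. The fit had a constant term and was subtracted whole, so the correction also recentres each treated library. Of 11109 expressed genes 85.8% had both properties. Start regions came from RefSeq (GRCh38.p14). The members and lists were chosen with earlier results of these data known. Named genes were the 9 members and the called, defining or most changed genes of each list. The 5 genes nearest to the member with the largest mean change were also named. PSMB5 to PSMB7, POMP, PSME1, PSME2, JAK2, UBE2L6, ISG15, BST2 and HLA-DMA were named as whole lists, as partners or after their values were seen. Values of 1 listed regulator are not reported here. The fold change call and the removal of a GC trend were tested on simulated data. The depth, the counting intervals, the ratios and the motif search were not tested in this way. Python 3.11.15, numpy 2.4.6, pandas 2.3.3, scipy 1.17.1 and matplotlib 3.10.9 were used.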

Additional observations from a re-analysis of the deposited data

How the results depend on the processing

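The depth and design set the limits: 1 tumor per group, counting intervals that leave out variation between tumors, and fragment numbers that rest on assumed gene lengths. No paired analysis was possible because the labels give no replicate numbers and each group has 1 library.

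No class I gene was called in any comparison under the deposited scaling. Median centring subtracts the median level of expressed genes from each library, and centring on the median change, chosen after seeing the data, subtracts the median change of the same genes. In CDK2i against vehicle, 1 gene, TAP1, was called after either centring (1.07 and 1.00), after equal sums and after the GC and length correction, and 3 genes (HLA-C, TAP1 and TAPBP) at a fold threshold of 1.5. In EZH2i against vehicle, 1 gene was called at a fold threshold of 1.5 (TAP1), and 1 gene, TAP2, without an expression minimum and with a minimum of log2 FPKM 1. In EZH2i against CDK2i, 2 genes, HLA-C and HLA-E, were called after median centring and at a fold threshold of 1.5, and 1 gene, HLA-C, after centring on the median change, where HLA-E was at −0.95. All others of the alternatives tried gave 0 class I calls.

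The class I median in CDK2i against vehicle was 0.80 after median centring and ran from 0.47 to 0.80 over all scalings and pseudocounts. In EZH2i against vehicle it changed sign, at −0.30 after median centring, −0.24 after centring on the median change, 0.19 with equal sums and 0.14 with the trend removed. In EZH2i against CDK2i it was −0.85 after median centring, −0.77 after centring on the median change, −0.24 with equal sums without ribosomal protein and mitochondrially encoded genes and −0.58 with the trend removed. Relative to the median of expressed genes, which the scalings moved between −0.26 and 0.07 in CDK2i and between −0.06 and 0.43 in EZH2i, the class I median was 0.73 in CDK2i and −0.24 in EZH2i under each rescaling by a constant, and 0.71 and 0.12 with the trend removed.

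Counts over all genes, in the order CDK2i against vehicle, EZH2i against vehicle and EZH2i against CDK2i, were 1947, 2710 and 3530 at a fold threshold of 1.5 and 250, 186 and 599 at 3. They were 11703, 10796 and 14246 without an expression minimum, 2037, 2232 and 4033 with a minimum of log2 FPKM 1 and 196, 262 and 403 with 5. EZH2i against vehicle had 1621 with equal sums and 341 with the trend removed, where EZH2i against CDK2i had 900. The share of higher calls was 28.9%, 66.9% and 72.9%, against 50.9%, 31.8% and 28.1% after median centring. For single genes and ratios, 125 of the alternative values stayed within the counting interval and 82 did not.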
